A study of Mus musculus with 6 samples.

Results

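The genes described here are 10 genes of bone morphogenetic protein (BMP) signalling. They are the ligand gene Bmp4, the protease gene Bmp1, the genes of the secreted antagonists Grem1 and Fst, the inhibitory Smad genes Smad6 and Smad7, and the Id genes Id1, Id2, Id3 and Id4. They were picked by gene symbol from a table of 21837 symbols in 27794 RefSeq entries, with earlier results of these data known. Where a symbol had more than 1 entry, the entry with the highest mean was taken. This applied to Bmp1 alone, whose chosen entry, NR_033241, is annotated as noncoding. Its coding entry, NM_009755, is given beside it.

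The cells were wildtype (WT) primary mouse embryonic fibroblasts (MEFs) of the strain C57BL/6x 129, grown from littermate embryos of day 13.5 and used after 4 passages. TNFα, an inflammatory signal whose receptors switch on the transcription factor NF-κB, was given at 20 ng/ml. Poly(A) RNA was sequenced by paired-end directional RNA-seq from untreated cells (0 hr) and from cells exposed for 1.5, 6 or 24 hr. Trimethylation of lysine 4 of histone H3 (H3K4me3), a mark of active promoters, was measured by ChIP-seq against input DNA in untreated MEFs. All groups had the same genotype and strain, and the sources used here do not say how many embryos were pooled. There was 1 library per time, so every difference between times below is a difference between libraries, with no replicate error and no test. In the label of the 24 hr sample the extraction field describes chromatin, but the other fields describe RNA, and it was kept as the 24 hr RNA library.

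Levels are RPKM (read numbers divided by exon length and by the size of the library), which correct for transcript length, so that levels of different genes can be set side by side. Each library has 2 columns of values, R1 and R2, which correlated at a Pearson r between 0.990 and 0.992 across transcripts and were averaged, since the sources do not describe them as replicates. The study gives the mapped total of each library, but the table holds no reads, so the number behind each value is not given here. The libraries differed as a whole: the median coding transcript had a log2 ratio to the untreated library of 0.43 (1.5 hr), −0.74 (6 hr) and 0.09 (24 hr). A ratio "as deposited" is therefore followed, where it matters, by a "relative" ratio from which this median was subtracted. Nfkbia, the gene of the NF-κB inhibitor IκBα and a classical target of TNFα, was at 3.73 RPKM before treatment and at 84.2, 31.0 and 67.4 RPKM at 1.5, 6 and 24 hr. Of 8 fibroblast markers, 7 averaged above 1 RPKM, up to 292, and the other, Pdgfra, averaged 0.98. No epithelial marker of 5 and no endothelial marker of 4 averaged above 0.028 RPKM. Of 5 macrophage and leukocyte markers, Cd68 and Csf1r averaged 5.66 and 2.32 RPKM and none of the 5 was listed at 0. The muscle marker Des averaged 2.51 RPKM, with Myog at 0.00783 and Myod1 at 0, and the neural markers Tubb3 and Sox10 averaged 1.48 and 0.231 RPKM. In bulk RNA, fewer cells of a type and less RNA per cell cannot be told apart.

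BMPs are secreted ligands of the TGFβ superfamily. They bind pairs of type I and type II serine/threonine kinase receptors, which phosphorylate Smad1, Smad5 and Smad9, and these enter the nucleus with Smad4 and activate target genes. The pathway is held in check outside the cell by antagonists that bind the ligands, such as gremlin (Grem1), noggin and chordin, and inside the cell by Smad6 and Smad7, which are themselves targets of the pathway and limit it by feedback. The Id genes are among its best known direct targets. Their products are helix-loop-helix proteins without a DNA-binding region, which pair with E proteins and keep them from DNA, and they are known for holding back differentiation in many lineages.

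Levels of the 10 genes spanned a wide range before treatment. Bmp1, by its noncoding entry, stood at 53.3 RPKM, above 98.5% of the coding genes with an untreated level above 0. It was followed by Id3 at 3.94, Bmp4 at 3.28, Grem1 at 1.70 and Smad7 at 1.32 RPKM. The other 5 were below 1 RPKM in untreated cells, with Id2 at 0.903, Id1 at 0.755, Smad6 at 0.630, Fst at 0.331 and Id4 at 0.325 RPKM. All 10 averaged above 0.1 RPKM over the 4 libraries, but only Bmp1, Bmp4, Grem1, Id3 and Smad7 averaged above 1. Id4 averaged 0.134 RPKM and passed 0.1 only through its untreated level. A change is counted below where it is at least 2-fold from the untreated library.

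At 1.5 hr, 2 of the 10 genes were at least 2-fold higher as deposited (Grem1 and Fst) and 3 were at least 2-fold lower (Bmp1, Smad6 and Id4). Among 11874 coding genes averaging above 0.1 RPKM, 31.2% were that much higher and 9.31% that much lower at this time. At 6 hr none of the 10 was 2-fold higher and 5 were 2-fold lower (Smad6 and all 4 Id genes), beside 2% higher and 32.8% lower among all coding genes. At 24 hr, Grem1 was higher and Bmp1, Smad6 and Id4 were lower, beside 17.2% and 13.8% of the coding genes. Relative to the median coding transcript the counts were 1 higher and 4 lower at 1.5 hr, where Fst left and Bmp4 joined, 1 higher and 3 lower at 6 hr, where Grem1 joined and Id2 and Id3 left, and 1 higher and 3 lower at 24 hr. On that relative scale the shares of all coding genes were 16.9% and 17.1% at 1.5 hr, 8.08% and 6.01% at 6 hr, and 14.8% and 15.7% at 24 hr. The median log2 ratio of the 10 genes as deposited was 0.45, −0.97 and −0.32 at the 3 times, against 0.50, −0.73 and 0.14 over the coding genes.

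**Figure D1:**
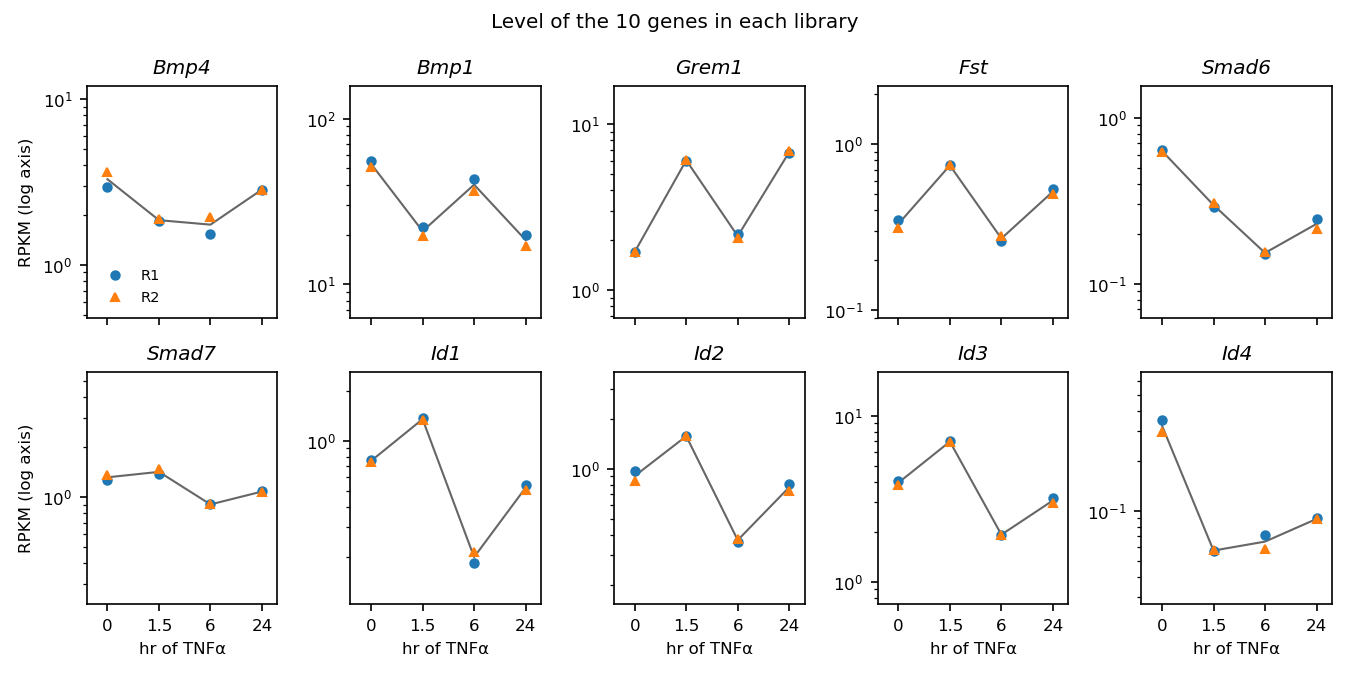
Level of each of the 10 genes in RPKM (log axis, its range chosen per gene) in the libraries at 0, 1.5, 6 and 24 hr of TNFα, with R1 as circles, R2 as triangles and a line through their mean. Id1, Id2 and Id3 were highest at 1.5 hr and lowest at 6 hr, Grem1 was high at 1.5 and 24 hr, and Id4 was highest in untreated cells.

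Id1, Id2 and Id3 shared 1 order of levels over the time course. Id3, the most abundant of the Id genes, was at 3.94 RPKM untreated, 6.98 at 1.5 hr, 1.92 at 6 hr and 3.08 at 24 hr. Id2 was at 0.903, 1.57, 0.370 and 0.772 RPKM in the same order, and Id1 at 0.755, 1.35, 0.198 and 0.520 RPKM. All 3 were thus highest at 1.5 hr, then in untreated cells, then at 24 hr, and lowest at 6 hr. Smad7 had this order as well, over a narrower range. As deposited, 60.1% of the coding genes averaging above 0.1 RPKM were highest at 1.5 hr and 72.9% were lowest at 6 hr. Relative to the median coding transcript, Id1, Id2 and Id3 were still highest at 1.5 hr, as were 30.6% of the coding genes. On that scale Id1 and Id2 were lowest at 6 hr, but Id3 was lowest at 24 hr.

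In fold terms, Id1, Id2 and Id3 were 1.78, 1.74 and 1.77 times the untreated level at 1.5 hr, under the 2-fold criterion, and Id2 was below genes of like GC content at that time, by a log2 difference of −0.49. At 6 hr they were 3.80, 2.44 and 2.06 times lower than untreated. The relative log2 ratios at 1.5 hr were 0.41, 0.37 and 0.40, close to the middle of the coding genes, of which between 61.1% and 62.7% had a lower ratio. At 6 hr the relative ratios were −1.19 for Id1, −0.55 for Id2 and −0.30 for Id3, so that 3.53%, 18.4% and 30.4% of the coding genes had a lower one. Only Id1 of the 3 was therefore past 2-fold at 6 hr on the relative scale. R1 and R2 gave the same sign for each of the 3 genes at every time. The summed level of the macrophage and leukocyte markers was 11.4 RPKM untreated, 14.9 at 1.5 hr, 3.90 at 6 hr and 6.21 at 24 hr, which is the same order. Of the 5 markers, only Cd68, which made up 7.06 of the 11.4 RPKM untreated, had this order itself. Csf1r was highest untreated, and Ptprc, Emr1 and Itgam were higher at 24 hr than untreated. Of the 8 fibroblast markers, Thy1, Fn1 and Pdgfra had this order too and the others did not, so the order is not particular to macrophage and leukocyte markers. The part of macrophages and leukocytes in the result was not tested.

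Id4 differed from the other Id genes in its order. It was at 0.325 RPKM in untreated cells, 0.0574 at 1.5 hr, 0.0650 at 6 hr and 0.0891 at 24 hr. Only the untreated library was high, at 5.66 times the 1.5 hr level, 5.0 times the 6 hr level and 3.65 times the 24 hr level. At 1.5 hr, when the other 3 were above their untreated level, the relative log2 ratio of Id4 was −2.93, and 0.79% of the coding genes had a lower one. Id4 was at a very low level throughout, and R1 and R2 differed by up to 20.5% of their mean.

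The distance between 2 genes over their log2 ratios at the 3 times gives the likeness of their courses. It was 0.28 between Id2 and Id3, the smallest of the 45 pairs of the 10 genes, 0.71 between Id1 and Id2 and 0.91 between Id1 and Id3. Smad7 was 0.87 from Id3, nearer than Id1 was, 1.01 from Id2 and 1.58 from Id1. Id4 was 3.61, 3.83 and 3.87 away from Id1, Id2 and Id3. The coding genes nearest to Id1 among 6566 averaging above 1 RPKM were Gas6 (0.38), C1qc (0.43), Prrx2 (0.45), Nfatc1 (0.47) and S100a6 (0.49), where the median distance was 1.78. Id3 made up most of the summed Id level in every library, 66.5% untreated, 70.1% at 1.5 hr, 75.2% at 6 hr and 69.0% at 24 hr, and the sum itself went from 5.93 to 9.95, 2.55 and 4.46 RPKM.

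The promoters of Id2, Id3 and Id4 are shown because H3K4me3, described below, covered the starts of Id2 and Id3 but not that of Id4. Each sequence runs from 250 bases before the start of the gene to 50 bases from it, on the strand of the gene, as RefSeq gives it for the build GRCm38.p6. Such a sequence was found for 6 of the 10 genes, namely Bmp4, Grem1, Smad6, Id2, Id3 and Id4. Capitals mark the letters GGCGCC, a palindrome known to be bound by BMP-activated Smads, and CAGAC or its reverse complement GTCTG, the Smad box. The windows lie at chr12:25096043-25096342 on the minus strand for Id2, chr4:136143572-136143871 on the plus strand for Id3 and chr13:48260866-48261165 on the plus strand for Id4.
Id2: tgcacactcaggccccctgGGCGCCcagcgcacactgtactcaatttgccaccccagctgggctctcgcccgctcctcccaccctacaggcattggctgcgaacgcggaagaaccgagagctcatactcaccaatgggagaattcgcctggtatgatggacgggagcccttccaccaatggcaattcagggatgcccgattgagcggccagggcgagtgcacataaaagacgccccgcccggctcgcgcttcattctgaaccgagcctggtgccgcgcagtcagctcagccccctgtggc
Id3: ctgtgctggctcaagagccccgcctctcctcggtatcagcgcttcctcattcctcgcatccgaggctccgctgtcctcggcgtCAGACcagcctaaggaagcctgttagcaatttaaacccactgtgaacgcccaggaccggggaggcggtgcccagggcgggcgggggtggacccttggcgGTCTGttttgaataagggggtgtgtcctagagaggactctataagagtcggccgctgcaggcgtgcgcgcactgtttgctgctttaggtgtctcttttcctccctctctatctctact
Id4: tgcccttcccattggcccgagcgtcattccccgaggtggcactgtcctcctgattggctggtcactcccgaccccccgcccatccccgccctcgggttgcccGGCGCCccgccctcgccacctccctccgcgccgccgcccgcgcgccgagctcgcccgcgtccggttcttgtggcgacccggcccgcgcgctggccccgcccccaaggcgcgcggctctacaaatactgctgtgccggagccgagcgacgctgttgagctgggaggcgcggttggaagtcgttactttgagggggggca

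GGCGCC was found once in the Id2 window, at base −231 from the start, and once in the Id4 window, at base −148. The Id3 window held CAGAC at base −167 and its reverse complement at base −68. GGCGCC occurs in 11.9% and CAGAC on either strand in 49.6% of the 32851 promoter windows of the same length, and no match of the 2 motifs overlapped another in these windows. The 6 windows had a GC content between 60.0% (Id3) and 73.3% (Id4), against a median of 52.7% over all windows. A consensus of NF-κB, found in 4.51% of all windows, matched none of the 6.

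Grem1 was the only one of the 10 genes that was at least 2-fold higher at 2 times, as deposited. It encodes gremlin, which binds BMP4 and BMP2 and keeps them from their receptors. Its level was 1.70 RPKM untreated, 6.07 at 1.5 hr, 2.12 at 6 hr and 6.80 at 24 hr. High levels were seen in the 1.5 and 24 hr libraries, 3.57 and 4.00 times the untreated one, while the 6 hr library was at 1.24 times. Relative to the median coding transcript the log2 ratios were 1.41, 1.05 and 1.91, and 92.5%, 92.8% and 97.6% of the coding genes had a lower one. R1 and R2 of Grem1 differed by at most 5.60% of their mean. The genes with the course nearest to that of Grem1, among 6565, were Cnih4 (0.12), Dpy19l1 (0.13), Mtpn (0.16), Ppp3ca (0.17) and Chchd1 (0.19), where the median distance was 2.69.

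The Grem1 promoter is shown as that of the gene with the largest rise in level. Its window of the same kind lies at chr2:113758599-113758898 on the minus strand (GRCm38.p6), with the same letters in capitals.
Grem1: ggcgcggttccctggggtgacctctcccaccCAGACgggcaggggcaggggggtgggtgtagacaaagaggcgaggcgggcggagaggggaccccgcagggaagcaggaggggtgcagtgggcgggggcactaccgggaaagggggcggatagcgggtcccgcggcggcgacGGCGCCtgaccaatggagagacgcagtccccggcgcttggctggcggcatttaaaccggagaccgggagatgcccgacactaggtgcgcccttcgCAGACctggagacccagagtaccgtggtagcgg
It held GGCGCC once, at base −78, and CAGAC at bases −219 and 18, all on the strand of the gene.

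Fst encodes follistatin, best known for binding activin and also able to bind BMPs. It was at 0.331 RPKM untreated, 0.746 at 1.5 hr, 0.271 at 6 hr and 0.519 at 24 hr. Its level at 1.5 hr was 2.25 times the untreated level as deposited and 1.67 times relative to the median coding transcript. At 6 hr its log2 ratio was −0.29 as deposited but 0.44 on the relative scale, so its direction at that time depends on the scale.

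Bmp4, the one ligand gene of the set, was at 3.28 RPKM untreated, 1.86 at 1.5 hr, 1.75 at 6 hr and 2.84 at 24 hr. It was highest in the untreated library, but in no library was Bmp4 2-fold lower as deposited. Its columns were the least alike, 2.93 (R1) and 3.63 (R2) RPKM in untreated cells. Relative to the median coding transcript, its log2 ratio was −1.25 at 1.5 hr, past 2-fold, −0.17 at 6 hr and −0.29 at 24 hr. At 1.5 hr, when Grem1 was high, Bmp4 was low. The ratio of Grem1 to Bmp4 levels was 0.52 untreated, 3.26 at 1.5 hr, 1.21 at 6 hr and 2.39 at 24 hr. Such a ratio within a library does not depend on the scaling of the library, but it is not centred by GC content. Grem1 and Bmp4 had a GC content of 44.7% and 52.5%. With the median of genes of like GC content subtracted, their log2 ratios at 1.5 hr were 0.64 and −1.34.

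Bmp1, in spite of its name, is not a ligand but a secreted metalloprotease that cleaves procollagens and the antagonist chordin. Its level was 53.3 RPKM untreated, 21.0 at 1.5 hr, 39.9 at 6 hr and 18.5 at 24 hr. It was low at 1.5 and 24 hr, 2.54 and 2.88 times below the untreated library. As deposited, its order of levels was the reverse of that of Grem1. The coding entry NM_009755 was at 43.1, 20.9, 30.8 and 17.1 RPKM, 2-fold lower at the same 2 times. Both are entries of 1 gene, so the split of reads between them is uncertain. At 6 hr the log2 ratio of Bmp1 was −0.42 as deposited and 0.32 on the relative scale, where that of Grem1 was 1.05. On that scale both genes were thus above their untreated level at 6 hr.

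Smad6 and Smad7 encode the inhibitory Smads, and only Smad6 passed 2-fold. It was at 0.630 RPKM untreated, 0.297 at 1.5 hr, 0.153 at 6 hr and 0.229 at 24 hr. It was highest in the untreated library, at 2.12 times the 1.5 hr level, 4.12 times the 6 hr level and 2.75 times the 24 hr level. The relative log2 ratios of Smad6 were −1.51, −1.31 and −1.55, and 8.04%, 2.67% and 6.86% of the coding genes had a lower one. Smad7 was at 1.32, 1.42, 0.903 and 1.08 RPKM, never more than 1.46-fold from the untreated level. Its relative log2 ratios were −0.32, 0.19 and −0.37, opposite in sign to the deposited ones at 1.5 and 6 hr.

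GC content, taken from the longest coding transcript of each gene symbol, went with the ratios of the coding genes. For Bmp1 it is therefore not the GC content of the noncoding entry whose level is given. At 1.5 hr, the median log2 ratio of coding genes fell from 1.43 in the lowest of 20 bins of GC content (34.4% to 42.4%) to −0.77 in the highest (60.7% to 71.7%). At 24 hr it went from 1.01 to −1.02 and at 6 hr from −0.06 to −0.88. Grem1 (44.7% GC) and Fst (45.9%) lie on the low side and Bmp1 (58.2%) and Smad6 (61.8%) on the high side. With the median of the gene's own bin subtracted, Grem1 was at 0.64, 0.69 and 1.26, Bmp1 at −1.01, 0.53 and −0.90, and Smad6 at −0.31, −1.16 and −0.44. Id4 (48.8% GC) was then at −3.44, −1.78 and −2.48, at least 2-fold lower at all 3 times. Fst was at 0.15, 0.21 and 0.02. Bmp4 (52.5% GC) was at −1.34, −0.07 and −0.32. Id1 (54.7%) and Id3 (55.6%) were at 0.76 and 0.73 at 1.5 hr, while Id2, with the lowest GC content of the 10 (42.4%), was at −0.49. At 6 hr they were at −0.99 for Id1, −0.12 for Id3 and −1.09 for Id2. The part of GC content in the results was not tested.

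**Figure D2:**
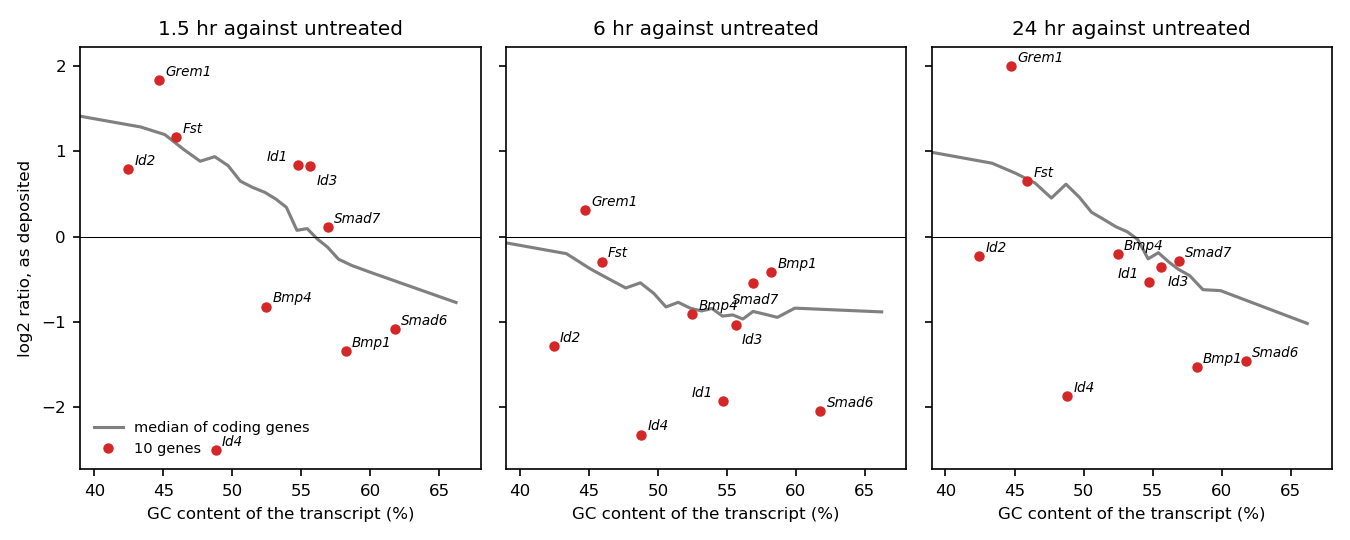
log2 ratio to the untreated library as deposited (vertical axis) at 1.5, 6 and 24 hr against GC content in percent (horizontal axis). GC content is that of the longest coding transcript of each gene symbol. The 10 genes are shown as points and the median of coding genes in 20 bins of GC content as a line. Grem1 is above the line at all 3 times and Id4 far below it, while Fst lies near it, and Id1 and Id3 are above it at 1.5 hr, when Id2 is below it.

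The other genes of the pathway were taken from a list, of which 51 are reported here. Of these, 16 averaged above 1 RPKM and 33 above 0.1. Among the 16, as deposited, 4 were at least 2-fold higher at 1.5 hr (Bmpr2, Twsg1, Smad4 and Smurf1) and 1 was lower (Runx2), beside 29.9% and 7.82% of 6570 coding genes at that level. Untreated, Bmpr2, Twsg1 and Smad4 were at 0.641, 0.756 and 0.859 RPKM. These genes passed the minimum of 1 RPKM only through their high 1.5 hr level, so their count as higher is not independent of that minimum. At 6 hr, 0 were higher and 5 were lower (Eng, Nbl1, Ski, Msx1 and Runx2), beside 1.74% and 31.6%. At 24 hr, 0 were higher and 2 were lower (Msx1 and Runx2), beside 16.8% and 12.6%. On the relative scale the counts were 1 and 5, 0 and 0, and 0 and 3, beside 16.3% and 16.7%, 7.03% and 3.2%, and 14.6% and 14.8%.

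Among the extracellular antagonists and modulators, Fstl1, which encodes a secreted follistatin-like protein, was abundant, at 53.2, 66.8, 45.9 and 65.6 RPKM, and its relative log2 ratio at 6 hr was 0.52. Nbl1, a secreted antagonist of the same family as gremlin, was at 10.0, 9.58, 3.32 and 7.73 RPKM, with a relative ratio of −0.86 at 6 hr. Chrd, the gene of chordin and named after its values were seen, was at 0.608, 0.248, 0.170 and 0.142 RPKM.

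Among the receptors, Bmpr2, the type II BMP receptor, was at 0.641, 1.80, 0.465 and 1.13 RPKM, with a relative log2 ratio of 1.06 at 1.5 hr and 0.74 at 24 hr, the largest rise of the 16 at both times on that scale. With the median of genes of like GC content subtracted, its ratios were 0.29 and 0.08 at these times, under 2-fold. Bmpr2 averaged 1.01 RPKM and was among the 16 only through its 1.5 hr level. Smurf1, a ubiquitin ligase that acts on BMP Smads, was at 1.80, 4.84, 1.49 and 3.17 RPKM, with relative ratios of 0.99, 0.46 and 0.72, and of 1.33, 0.64 and 1.00 when centred by GC content, above those of Bmpr2. The coreceptor endoglin (Eng) was at 2.49, 1.37, 0.821 and 1.30 RPKM, highest in untreated cells, with a relative ratio of −1.29 at 1.5 hr and −0.87 at 6 hr, and of −0.60 and −0.70 when centred by GC content. None of the other 10 ligand genes of the list averaged above 0.1 RPKM. Bmp2, the highest of them and named after its values were seen, was at 0.0260, 0.0713, 0.0627 and 0.122 RPKM.

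Among other targets of the pathway, Runx2, the gene of a transcription factor of bone formation, was at 2.38, 1.04, 1.13 and 0.863 RPKM, with relative log2 ratios of −1.62, −0.34 and −1.55, and of −1.84, −0.25 and −1.75 when centred by GC content. Msx1, a homeobox gene, was at 8.47, 5.36, 3.40 and 1.97 RPKM, and its ratio at 24 hr was −2.19 relative to the median and −1.48 when centred by GC content. Of 5 such genes averaging above 0.1 RPKM, 4 (Msx1, Hey1, Runx2 and Atoh8) were at least 2-fold lower at 6 and at 24 hr as deposited, beside 32.8% and 13.8% of the coding genes at that level, and the exception was Msx2. On the relative scale only Hey1 and Atoh8 were that much lower at 6 hr, and the same 4 at 24 hr. At 1.5 hr, as deposited, Runx2 and Atoh8 were 2-fold lower and Msx2 was 2-fold higher, beside 9.31% and 31.2% of the coding genes. The log2 ratio of Msx2 was 1.59 as deposited, 1.16 relative to the median and 0.65, under 2-fold, when centred by GC content. On the relative scale Msx1 joined those lower at 1.5 hr, beside 17.1% of the coding genes. Atoh8 and Hey1 were named after their values were seen. Atoh8 was at 0.804, 0.164, 0.0372 and 0.0339 RPKM, and Hey1 at 1.00, 1.43, 0.195 and 0.244 RPKM. Atoh8 averaged above 0.1 RPKM only through its untreated level, so its count among the lower genes is not independent of that minimum. At 24 hr Hey1 was thus still low, where Id1, Id2 and Id3 were between 0.689 and 0.856 times their untreated level. The E protein genes Tcf3 (E2A), Tcf4 and Tcf12, whose products Id proteins bind, did not pass 2-fold at any time.

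**Figure D3:**
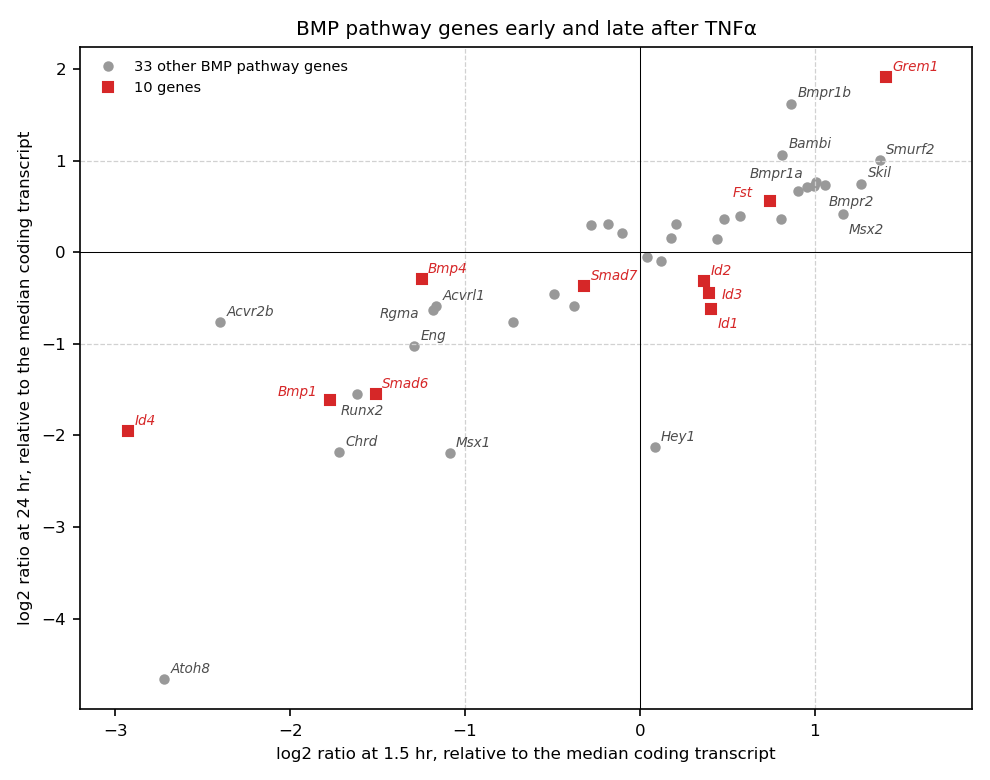
log2 ratio at 1.5 hr (horizontal axis) and at 24 hr (vertical axis), both relative to the median coding transcript, for the 10 genes (squares) and 33 other pathway genes averaging above 0.1 RPKM (circles), with dashed lines at 2-fold. Grem1 lies at the upper right, Id4 and Atoh8 at the lower left, and Id1, Id2 and Id3 side by side near the centre.

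H3K4me3 was present at the starts of 9 of the 10 genes. A peak of the deposited list lay within 1 kb of a coding start for all but Id4, and each of the 9 covered the start itself. The share was 54.2% over 19724 coding genes, and 87.7% over the 9103 with an untreated level in the range of the 10 genes (0.325 to 53.3 RPKM), and 1.73% over the 4209 listed at 0. The nearest peak to Id4 was 250733 bp away. Among the other pathway genes, 32 of 51 had a peak.

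The peaks of the 9 genes were longer than the median peak at coding starts. Long peaks were not particular to them, as those at other pathway genes spanned from 2095 bp (Twsg1) to 10690 bp (Ski). Peak length was not compared among genes of like RNA level. The peak of Smad7 spanned 15843 bp with 7385 tags, and 99.9% of the 9610 peaks at coding starts were shorter, which had a median length of 3308 bp and a median of 1118 tags. That of Id2 spanned 9606 bp with 2493 tags, of which 5599 bp lay before the start. Those of Smad6, Bmp4, Id3 and Bmp1 spanned 7621, 7543, 7223 and 6784 bp, and those of Id1 and Fst 5909 and 5791 bp. The peak of Grem1 was the shortest of the 9, at 3982 bp with 1334 tags, though 68.8% of the peaks at starts were shorter still. In fold enrichment over input they were less set apart, from 35.4 for Smad6 to 84.5 for Id2, against a median of 47.1 for peaks at starts. Smad6, at 0.630 RPKM, and Fst, at 0.331 RPKM, had 3297 and 2253 tags, more than the 1916 of Bmp1 at 53.3 RPKM. In fold enrichment their order was the reverse, at 35.4 for Smad6, 38.8 for Fst and 54.2 for Bmp1.

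In the coordinates of the build mm9, which the files use, the peak at Id1 lay on chromosome 2 from 152559936 to 152565844 and covered the whole gene (152561987 to 152563146). The peak at Id2 lay on chromosome 12 from 25776951 to 25786556 and that at Id3 on chromosome 4 from 135697685 to 135704907, and both likewise covered the whole gene. Grem1 lies on chromosome 2 from 113586321 to 113598803, and its peak, from 113595906 to 113599887, covered the start side of the gene. Id4, without a peak, lies on chromosome 13 from 48356796 to 48359405. The ChIP-seq had 1 library, so the peaks have no replicate.

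**Figure D4:**
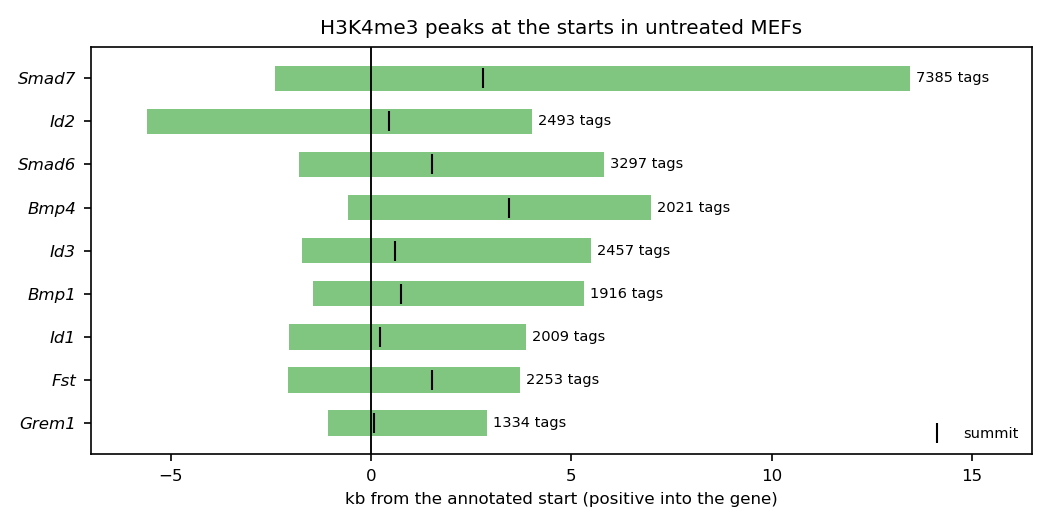
Extent of the H3K4me3 peak at the start of each of the 9 genes with one, in kb from the annotated start (positive into the gene), with the summit as a tick and the number of tags in the peak beside it. The peak of Smad7 is the longest, at 15843 bp, that of Id2 reaches farthest before the start, and that of Grem1 is the shortest.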

How the data were processed

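TopHat was used by the authors to map RNA-seq reads to mm9, and a script of theirs gave the deposited RPKM of each RefSeq transcript, as 2 columns (R1, R2) for each library. These values were divided by 85.7, the median of their ratio to the RPKM scale of the study over 6312 values, and the mean of R1 and R2 was the level of the library. The ChIP-seq reads were mapped with Bowtie, and the deposited MACS peak list gives for each peak a tag count, a fold enrichment ratio over input, an FDR in percent and a score made from the log10 of the p-value, of which the counts and ratios were used. The deposited signal column, tags per base of the peak, was not used. Columns were matched to times through library names and sample titles.

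A ratio of at least 2-fold to the untreated library was counted as a change, with no pseudocount and no test, since there was 1 library per time. The 2-fold criterion and an average of 1 RPKM follow the study. The 10 genes were counted without that minimum, and the minimum of 0.1 RPKM for the background was chosen after the values were seen. Relative ratios were less the median over 8530 coding transcripts above 1 RPKM. Shares of coding genes with a lower ratio are over the 11864 that averaged above 0.1 RPKM and were above 0 in every library. GC content was that of the longest annotated coding transcript of the gene symbol, which can differ from the RefSeq entry measured. It was found for 98.1% of 6570 coding genes. The genes and lists were chosen with earlier results of these data known. From the pathway list, of which 1 gene is not reported here and is left out of the counts, the 2 largest relative rises and falls at each time above 1 RPKM were named, and for Id1 and Grem1 the 5 nearest courses by Euclidean distance of the 3 log2 ratios as deposited. Peaks within 1 kb of a start by at least 1 bp were counted. Alternatives were other scalings, a pseudocount, other folds and minimums, each column alone and centring by GC content. The steps were tested on simulated data. Python 3.11.15, numpy 2.4.6, pandas 2.3.3 and matplotlib 3.10.9 were used.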

Additional observations from a re-analysis of the deposited data

Results flagged for a closer look

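For Id1, Id2 and Id3, the ratio to the untreated library as deposited was above 1 at 1.5 hr and below 1 at 6 and 24 hr, in both columns of each library and under every scaling tried. With 1 library per time the difference between times was not tested. As deposited, the log2 ratio at 1.5 hr exceeded that at 6 hr by 2.76 for Id1, 2.08 for Id2 and 1.86 for Id3. It exceeded that at 24 hr by 1.37 for Id1, 1.02 for Id2 and 1.18 for Id3. These differences include that of the libraries as a whole, whose median coding transcript was at 0.43 (1.5 hr), −0.74 (6 hr) and 0.09 (24 hr). Relative ratios of Id1, Id2 and Id3 were 0.41, 0.37 and 0.40 at 1.5 hr and −1.19, −0.55 and −0.30 at 6 hr. As deposited, 60.1% of coding genes averaging above 0.1 RPKM were highest at 1.5 hr and 72.9% lowest at 6 hr. For Id2 the sign at 1.5 hr changed when ratios were centred within bins of GC content, to −0.49, so that its ratio was then below that of genes of like GC content at all 3 times.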

How the results depend on the processing

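No paired analysis was possible because each time has 1 library. For the 10 genes, none of the 14 ratios past 2-fold as deposited changed sign under any alternative, and 11 of them were still past 2-fold under each of the 3 other scalings (summed values, median ratio of coding transcripts, trimmed mean), 14 with R1 or R2 alone, 7 with ratios centred by GC content and 4 with a pseudocount of 1 RPKM. Of the 30 ratios, 4 changed sign under each scaling (Bmp1, Fst and Smad7 at 6 hr and Smad7 at 1.5 hr) and 5 with GC centring (Bmp1, Fst and Smad7 at 6 hr, Smad7 at 24 hr and Id2 at 1.5 hr). The centring and the 0.1 RPKM minimum were chosen after the data were seen. The number of the 10 genes higher at 1.5 hr, 2 as deposited, was 1 under each scaling, with the pseudocount, at 3-fold and above 1 RPKM, 0 with GC centring and 5 at 1.5-fold. The number lower at 1.5 hr, 3, was 4 under each scaling and at 1.5-fold, and 1 with the pseudocount, at 3-fold and above 1 RPKM. At 6 hr the number higher, 0, was 1 under each scaling. The number lower at 6 hr, 5, was 3 under each scaling, with GC centring and at 3-fold, 0 with the pseudocount, 1 above 1 RPKM and 6 at 1.5-fold. At 24 hr the number higher, 1, was 2 at 1.5-fold. The number lower at 24 hr, 3, was 2 with GC centring and 1 with the pseudocount, at 3-fold and above 1 RPKM. For the pathway list the number higher at 1.5 hr, 4, was 1 under the median scaling, with the pseudocount and with GC centring. It was 3 under the trimmed scaling, 5 at 1.5-fold, 0 at 3-fold, 17 without a minimum and 12 above 0.1 RPKM. The number lower at 1.5 hr, 1, was 3 under the summed scaling, 5 under the median and trimmed scalings and at 1.5-fold, 0 with the pseudocount and at 3-fold, 2 with GC centring, 9 without a minimum and 4 above 0.1 RPKM. At 6 hr the number higher, 0, was 2 without a minimum. The number lower at 6 hr, 5, was 0 under each scaling and with GC centring, 4 with R1 alone and 6 with R2 alone. It was 3 with the pseudocount, 12 at 1.5-fold, 2 at 3-fold, 20 without a minimum and 11 above 0.1 RPKM. At 24 hr the number higher, 0, was 4 at 1.5-fold, 5 without a minimum and 3 above 0.1 RPKM. The number lower at 24 hr, 2, was 3 under the median scaling and 1 with the pseudocount and at 3-fold. It was 4 at 1.5-fold, 14 without a minimum and 5 above 0.1 RPKM. Fewer or more genes enter the counts by construction where the minimum or fold was changed, and elsewhere the cause was not tested. The number of the 10 genes with an H3K4me3 peak, 9, stayed within 1.5 times under every alternative run. The table gives no reads per transcript, and no limit of detection was computed for Id4, Fst and Smad6.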
